A study of Mus musculus with 58 samples.

Results

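Imprinted genes on autosomes, outside the Airn, Kcnq1ot1 and Dlk1-Meg3 domains, were followed by parental allele in chromatin-associated RNA. The RNA came from female mouse cells that carry 129S-derived and Cast chromosome sets. The genes were a list of 35 known imprinted genes named by symbol, drawn up with earlier results of these data known, out of 22556 genes counted. Of these genes, 23 are known in textbooks for expression from the paternal allele and 12 from the maternal allele. The Dom share of a gene is the fraction of its allele-assigned fragments that came from the 129S allele, called Dom, and it was read only where a library held at least 10 such fragments. A share of 0.5 means equal RNA from both alleles, 1 means Dom only and 0 means Cast only. The direction of the mouse cross is not given in the sources used here, so neither Dom nor Cast could be named maternal or paternal.

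The 58 libraries came from 6 lines of embryonic stem (ES) cells, all derived from iXist-ChrX-Dom cells, in which a TetOn promoter was placed at the endogenous Xist gene of the 129S X chromosome so that doxycycline turns Xist on. WT carried no further change. SPOC carried a mutated SPOC domain of Spen, a co-repressor recruiter bound by Xist RNA, and was studied as the clones C11, D9 and H1, of which D9 and H1 were taken into neural differentiation. PCGF35 carried FKBP12 degron tags on PCGF3 and PCGF5, Polycomb subunits that the compound dTAG-13 then degrades, and PCGF35_SPOC joined both changes in the clones F10 and F6. DelPID lacked the PID region of Xist, its B/C repeats, and DelPID_SPOC, named by its titles as the double mutant, was studied as the clones A8 and G3. A legend of the paper calls a clone G of this double mutant tetraploid, holding each X allele in 2 copies. Of A8 and G3, only G3 bears that letter. Each clone is a single derivation, so a difference between a mutant line and its parent cannot be told apart from a difference between clones. ES cells were sampled at day 0 and after 1 day of 1 µg/mL doxycycline, and neural precursor cells (NPC) at days 3 and 6 of differentiation with doxycycline. A change with differentiation below means NPC day 6 against ES day 0. Only the NPC side of it had doxycycline, and the medium changed too. Differentiation, prolonged doxycycline and medium therefore cannot be told apart there. In PCGF35 and PCGF35_SPOC each time was also sampled with 100 uM dTAG-13 added 12 h before doxycycline. WT and DelPID have NPC libraries alone, and of the 28 groups 26 hold 2 libraries and 2 hold 3.

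In genomic imprinting a gene is transcribed mainly from the copy inherited from a given parent, because a differentially methylated region set in the germline marks the other copy. The mark is kept through early development by zinc-finger proteins such as ZFP57, which binds the methylated hexamer TGCCGC and brings in TRIM28, SETDB1 and DNMT1. Imprinted genes act in fetal growth, in placental transport and in the brain, and several keep their imprint only in particular tissues. Cultured ES cells are known for variable loss of such marks.

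Promoter windows were read from RefSeq (GRCm38.p6, the assembly known as mm10) for 27 of the 35 genes. Each window covers 250 bases before and 50 after an annotated start, and 13 of the 44 member windows, 29.5%, held TGCCGC on either strand, against 11.6% of 32851 windows of all genes. The median number of CpG dinucleotides per window was 16.5 in the members and 7 over all windows. Printed here are the 250 bases before a start for the genes on which the allelic results turn, with TGCCGC or its reverse complement GCGGCA in capitals. Mest is shown for its matches to the motif, Snrpn because its share stood apart, and Peg3 and Slc38a4 because their shares changed with differentiation. The Mest window is chr6:30737800-30738049 on the plus strand, that of Peg3 is chr7:6730420-6730669, that of Slc38a4 is chr15:97055957-97056206 and that of Snrpn is chr7:60005200-60005449, the last 3 on the minus strand.
Mest: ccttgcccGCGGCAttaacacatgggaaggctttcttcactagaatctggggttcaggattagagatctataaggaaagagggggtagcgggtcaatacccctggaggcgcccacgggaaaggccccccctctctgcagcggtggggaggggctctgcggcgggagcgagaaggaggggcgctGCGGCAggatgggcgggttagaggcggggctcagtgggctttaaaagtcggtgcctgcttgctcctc
Peg3: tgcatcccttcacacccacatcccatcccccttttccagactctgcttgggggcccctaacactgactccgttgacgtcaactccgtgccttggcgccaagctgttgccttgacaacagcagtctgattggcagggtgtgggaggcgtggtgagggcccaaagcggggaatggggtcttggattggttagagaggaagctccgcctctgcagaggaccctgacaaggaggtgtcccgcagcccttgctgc
Slc38a4: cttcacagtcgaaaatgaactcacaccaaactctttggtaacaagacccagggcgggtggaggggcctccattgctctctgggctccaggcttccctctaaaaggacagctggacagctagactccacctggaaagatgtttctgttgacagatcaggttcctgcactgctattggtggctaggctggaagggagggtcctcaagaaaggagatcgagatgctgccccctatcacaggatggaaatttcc
Snrpn: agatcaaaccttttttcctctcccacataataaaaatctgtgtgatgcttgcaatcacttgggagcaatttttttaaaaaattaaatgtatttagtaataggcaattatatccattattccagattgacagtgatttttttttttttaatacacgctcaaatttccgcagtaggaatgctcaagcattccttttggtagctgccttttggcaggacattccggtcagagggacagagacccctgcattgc
The Mest stretch held the hexamer 2 times and the other printed stretches 0 times, while the whole window of Snrpn held it 1 time, in the 50 bases after the start that are not printed. A match in letters is a description, not a site shown to be bound. The window of Peg3 overlaps that of Usp29 on the other strand.

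Libraries held 2292261 to 30005305 fragments in genes (median 15920524), and 44.2% to 49.6% of them were assigned to an allele. The shallowest was replicate 1 of DelPID at NPC day 6. As a check of the allele columns, the Dom share of Xist fragments was 0.998949 or more in every NPC library, and the median Dom share of 399 X-linked genes was 0.463 at ES day 0 and 0.182 at NPC day 6 (medians over libraries). The summed level of 7 ES marker genes was 1074 to 2040 CPM (counts scaled to the library total) in ES libraries and 322 to 1224 in NPC libraries. The 7 neural markers, of which Sox1 was at 0 in all libraries, gave 410 to 1313 CPM in ES and 302 to 1338 CPM in NPC libraries. Their summed level thus did not set the NPC label apart. Taken singly, 4 of 6 tested rose between ES day 0 and NPC day 6, Nes, Pax6, Vim and Zfp521, and 0 fell. That comparison, by edgeR at an adjusted p under 0.05, called 53.9% of autosomal genes. The 10 fibroblast markers, of the kind of cell used as feeders and removed by pre-plating, reached 4.92 to 39.1 CPM in ES and 3.02 to 248 CPM in NPC libraries. In bulk RNA, fewer cells of a type and less RNA per cell cannot be told apart.

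Enough total RNA for testing was found for 32 of the 35 genes, and 24 had 10 allelic fragments in over 80% of libraries, so that their Dom share could be tested. Klf14, a transcription factor gene, reached a median of 2 fragments, while Peg13, a non-coding RNA inside Trappc9, and Mcts2, a retrogene inside H13, were listed at 0 in all 58 libraries. Both lie wholly within their host on the same strand, and the counting settings listed in the paper name no option for fragments shared by 2 genes. Snurf likewise overlaps Snrpn on the same strand over 22656 bases, 14.4% of Snrpn. The Snrpn count may leave out fragments from that stretch, which was not tested. Per kilobase of gene, Nespas stood highest among the members with a median of 9.69 CPM, followed by Impact with 9.02, Peg3 with 6.27 and Zrsr1 with 5.42. At the low end Igf2, the fetal growth factor gene of the H19 locus, had a median of 2 fragments per library.

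Counted over whole genes, most of the imprinted genes gave RNA from both alleles. Transcripts of a gene with different starts were pooled, so a share near equality does not give the share of each transcript. The median Dom share over libraries lay between 0.4 and 0.6 in 18 of the 24 testable genes, 75.0%, against 70.1% of 11621 autosomal genes. The latter include chromosomes 8 and 12, which hold no member and had family medians of 0.352 to 0.363 and 0.358 to 0.370. Measured from the chromosome median, the median distance was 0.0453 in the 24 genes and 0.0402 in autosomal genes. It was 0.0745 in the paternally and 0.0215 in the maternally expressed genes. The 13 paternally expressed genes had medians from 0.407 to 0.952 (10 of them between 0.4 and 0.6), and the 11 maternally expressed genes from 0.465 to 0.701 (8 of them). A share below 0.1 or above 0.9 in every library was found for 0 of the 27 members with enough libraries, where 0.236% of 13978 autosomal genes met that rule. With the limits set to 0.2 and 0.8 it was 1 of 27, Snrpn, against 0.601% of autosomal genes.

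**Figure D1:**
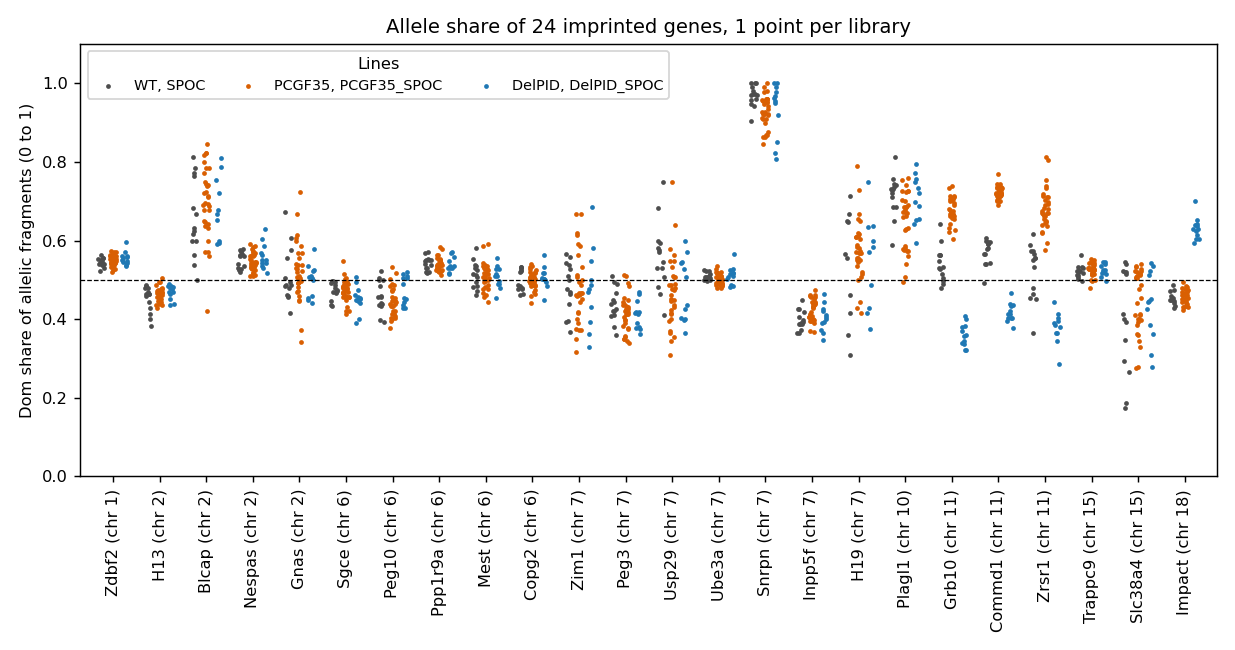
Dom share (fraction of allelic fragments from the 129S allele, axis from 0 to 1) of the 24 testable imprinted genes, 1 point per library with at least 10 allelic fragments, coloured by the 3 line families WT and SPOC, PCGF35 and PCGF35_SPOC, and DelPID and DelPID_SPOC. The points of Snrpn sit between 0.808 and 1, those of Slc38a4 reach down to 0.174, and those of Grb10, Zrsr1, Commd1 and Impact split by family.

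Snrpn, which encodes the spliceosomal protein SmN at the Prader-Willi locus, was the exception. Its Dom share ran from 0.808 to 1 with a median of 0.952, while the median of its 10 nearest tested neighbours was 0.598 and that of chromosome 7 was 0.523. Summed over all libraries 4460 of 4737 allelic fragments were Dom, a share of 0.942 (95% Wilson interval 0.934 to 0.948, which covers counting error only). By line the median was 0.976 in WT (4 libraries), 0.971 in SPOC (10), 0.959 in DelPID_SPOC (8), 0.933 in PCGF35 (16), 0.926 in PCGF35_SPOC (16) and 0.896 in DelPID (4), and the ranges of all 6 lines overlapped. The stages overlapped too, at 0.921 to 1 in the untreated ES libraries of day 0 and 0.909 to 0.979 at NPC day 6. The cross direction being unknown, it was not tested whether Dom is the paternal copy.

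The neighbours of Snrpn in the Prader-Willi region reached 10 allelic fragments in few libraries, 31 of 58 for Mkrn3, 16 for Peg12, 14 for Magel2 and 2 for Ndn, and their fragments were therefore summed over libraries. Mkrn3, a makorin RING-finger gene, had 395 Dom fragments of 658, a share of 0.600 (0.562 to 0.637), and ran from 0.364 to 0.867 in the 31 libraries. Peg12 gave 0.477 (0.428 to 0.528, 377 fragments), Magel2, a regulator of a ubiquitin ligase, 0.460 (0.412 to 0.510, 391 fragments), and Ndn, which encodes necdin, 0.550 (0.477 to 0.621, 180 fragments). All 4 intervals lay below that of Snrpn. Ube3a, the ubiquitin ligase gene of the adjoining Angelman locus, had a median share of 0.507 (0.479 to 0.565). The other sparse genes had wide intervals, with Rasgrf1 at 0.583 (0.500 to 0.661, 139 fragments), Nap1l5 at 0.613 (0.488 to 0.724, 62 fragments), Klf14 at 0.471 (0.341 to 0.605, 51 fragments), Nnat at 0.500 (0.299 to 0.701, 20 fragments) and Igf2 at 0.643 (0.388 to 0.837, 14 fragments).

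Beside the local background, a few genes leaned to 1 side by a smaller margin. In every library with a share, Snrpn lay above the median of its 10 nearest tested genes, and Peg3, Impact, H13 and Inpp5f lay below it, 5 of 24 genes where 12.2% of autosomal genes kept to 1 side. Only the listed genes were left out of the neighbours, so other imprinted genes could be among them. Peg3, a zinc-finger gene on the proximal part of chromosome 7, had a median Dom share of 0.419 against 0.592 for its neighbours. The chromosome 7 median was 0.523, so the neighbours of Peg3 themselves leaned to Dom. Inpp5f, an inositol phosphatase gene, had 0.407 against 0.518, Impact, an inhibitor of the GCN2 pathway, 0.463 against 0.536, and H13, the signal peptide peptidase gene, 0.465 against 0.525. In the same Peg3 region Zim1 stood at 0.468 and Usp29, which starts beside Peg3 on the other strand, at 0.486.

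On the other side, Plagl1, a zinc-finger transcription factor gene that regulates other imprinted genes, had a median share of 0.686 (0.494 to 0.813) against 0.528 for its neighbours and lay above them in 55 of 58 libraries. Blcap, which overlaps Nnat on the opposite strand, had 0.685 (0.421 to 0.846) against 0.516 and lay above in 54 of 56. H19, the non-coding RNA gene of the Igf2 locus, had a median of 0.570 (0.308 to 0.789), from a median of 26.5 allelic fragments. The remaining testable genes sat near equality: Zdbf2 0.549, Nespas 0.546, Ppp1r9a 0.537, Trappc9 0.525, Mest 0.512, Gnas 0.505, Copg2 0.500, Sgce 0.469 and Peg10 0.448 as median Dom shares. Mest and Copg2 share 914 bases and Gnas and Nespas 11118 bases on opposite strands, and the counting was stranded.

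The largest differences between lines were found for the genes on chromosomes 11 and 18. Commd1, a copper and NF-kB regulator gene on chromosome 11, had Dom shares of 0.493 to 0.606 in WT and SPOC (median 0.579), 0.690 to 0.769 in PCGF35 and PCGF35_SPOC (0.719) and 0.376 to 0.466 in DelPID and DelPID_SPOC (0.413). Zrsr1, a splicing-factor retrogene that lies within Commd1 on the opposite strand, ran from 0.365 to 0.616, from 0.577 to 0.814 and from 0.286 to 0.443 in the same order. Grb10, which encodes an adaptor that restrains insulin signalling, ran from 0.478 to 0.641, from 0.603 to 0.740 and from 0.322 to 0.407. For Commd1 the 3 families did not overlap, and for Grb10 and Zrsr1 the PCGF35 and DelPID families did not overlap with each other. Impact, on chromosome 18, ran from 0.429 to 0.486 in WT and SPOC, from 0.424 to 0.494 in the PCGF35 family and from 0.594 to 0.701 in the DelPID family, which alone stood apart.

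**Figure D2:**
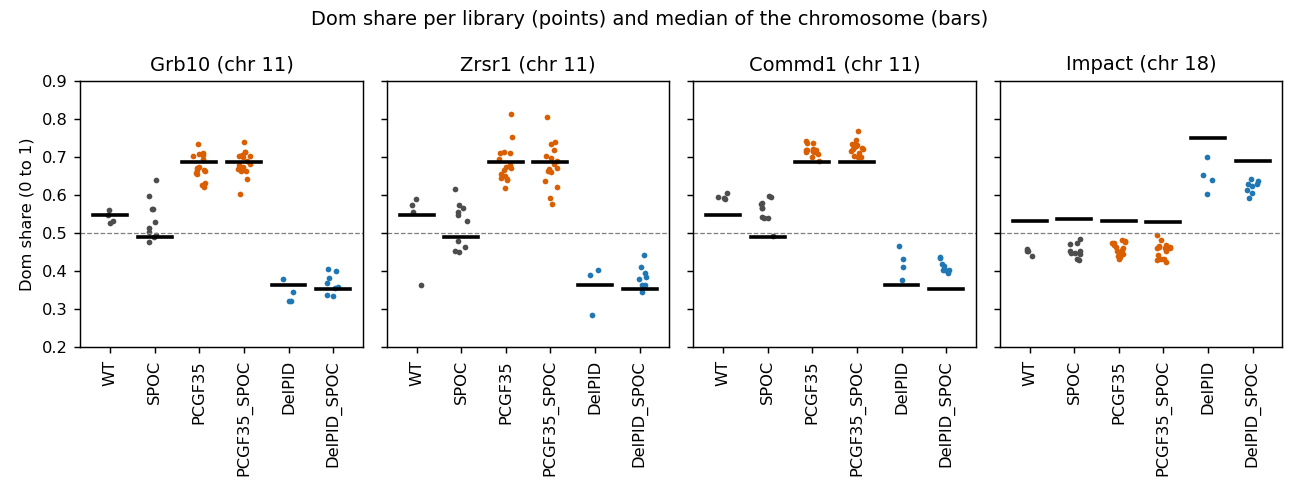
Dom share of Grb10, Zrsr1, Commd1 (chromosome 11) and Impact (chromosome 18) in each line, 1 point per library, with bars at the median share of all tested genes of that chromosome in the line's libraries. The points follow the bars, which stand at 0.683 to 0.693 on chromosome 11 in the PCGF35 lines and at 0.348 to 0.372 in the DelPID lines.

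The whole chromosomes moved in the same lines. The median Dom share over chromosome 11 genes was 0.475 to 0.548 in WT and SPOC libraries, 0.683 to 0.693 in the PCGF35 family and 0.348 to 0.372 in the DelPID family, and over chromosome 18 genes 0.684 to 0.781 in the DelPID family and 0.520 to 0.544 elsewhere. Over untreated NPC libraries, 9 of the 24 genes differed between the 6 lines, against 20.9% of autosomal genes. The calls covered 97.9% of genes tested on chromosome 11, 93.1% on chromosome 18 and 11.3% on the other autosomes. The widest were Commd1, with a range over lines of 1.90 in log2 Dom-to-Cast ratio (edgeR's quasi-likelihood test with Benjamini-Hochberg adjustment, adjusted p = 6.51e-24), Grb10 with 1.85 (1.02e-18) and Zrsr1 with 1.84 (2.45e-08), followed by Impact with 1.20 (8.79e-19). Plagl1, Slc38a4, Nespas, Ppp1r9a and Peg3 passed too, with ranges of 1.07, 0.91, 0.36, 0.22 and 0.49.

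With the median of each chromosome in each library taken as an offset, 3 of 24 genes differed between lines, Grb10, Slc38a4 and Peg3, against 11.8% of autosomal genes, and the range of Commd1 was 0.29 and that of Impact 0.29. Leaving out single libraries ended the call of Plagl1 in 17 fits, of Ppp1r9a in 14 and of Nespas in 7, and that of Peg3 without replicate 2 of WT at NPC day 3, replicate 1 of WT at day 6, or replicate 2 of DelPID at day 3 or day 6. With limma the calls of Nespas, Plagl1 and Ppp1r9a ended (adjusted p = 0.0629, 0.0752 and 0.105), and with the compared groups alone those of Peg3, Ppp1r9a and Nespas (0.0889, 0.0964 and 0.125).

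The clearest allelic change between ES day 0 and NPC day 6, where differentiation and doxycycline go together, was that of Slc38a4. It is an amino acid transporter gene of placenta and liver on chromosome 15. At ES day 0 its Dom share in the untreated libraries was 0.519 and 0.509 in PCGF35, 0.516 in F10 and 0.540 in F6, 0.536 in A8 and 0.511 in G3, and 0.519, 0.521 and 0.546 in the SPOC clones C11, D9 and H1. At NPC day 6 it was 0.411 and 0.328 in PCGF35, 0.345 in F10 and 0.277 in F6, 0.279 in A8 and 0.443 in G3, and 0.186 and 0.174 in D9 and H1. All 9 ES libraries were above all 8 NPC libraries, and both SPOC clones lay below every other library. Between the stages 3 of 24 genes changed in Dom share, where 10.8% of autosomal genes did, and Slc38a4 had the largest change (log2 ratio change of -1.35, SE 0.10, edgeR adjusted p = 6.49e-13). It was the 1 gene of 24 that moved toward Cast, where 5.09% of autosomal genes did.

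**Figure D3:**
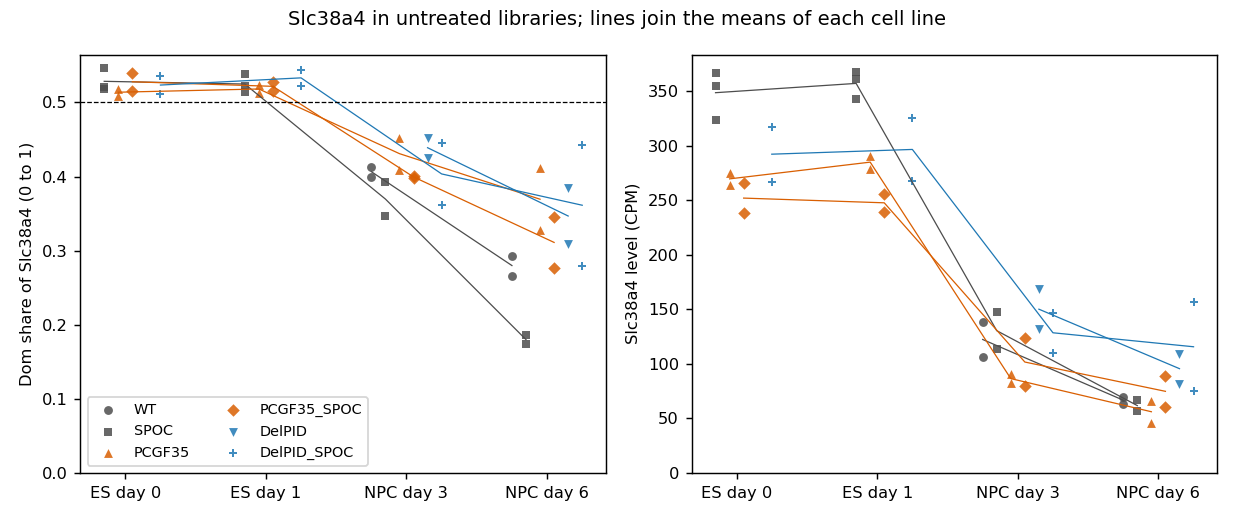
Slc38a4 by day in the untreated libraries of each line, with the Dom share in 1 panel and the total level in CPM in the other, 1 point per library. The share stands between 0.509 and 0.546 at ES day 0 and between 0.174 and 0.443 at NPC day 6, and the level between 238 and 367 CPM and between 46.0 and 156 CPM.

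WT and DelPID, which have no ES libraries, stood in the same range in NPC. Slc38a4 shares at day 3 were 0.400 and 0.413 in WT and 0.425 and 0.452 in DelPID, and at day 6 0.266 and 0.293 in WT and 0.309 and 0.384 in DelPID. Day 3 libraries of the other lines lay between 0.347 and 0.453. After 1 day of doxycycline in ES cells the share was still 0.513 to 0.544 in untreated libraries.

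Both alleles of Slc38a4 lost RNA, the Dom allele more. In SPOC, Dom fragments went from 98.3 ± 6.71 CPM (SD, n = 3) at ES day 0 to 6.19 ± 0.29 (n = 2) at NPC day 6 and Cast fragments from 87.6 ± 2.20 to 28.3 ± 2.94. In untreated PCGF35, Dom went from 72.4 ± 1.14 to 11.6 ± 4.21 CPM and Cast from 68.5 ± 2.94 to 19.2 ± 2.28 (n = 2 at each time). Taken line by line, the log2 change in the Dom-to-Cast ratio was -2.35 in SPOC (edgeR adjusted p = 1.61e-10), -1.31 in PCGF35_SPOC (0.000113), -0.93 in DelPID_SPOC (0.0127) and -0.80 in PCGF35 (0.0209), in comparisons that called 4.10%, 0.267%, 0.921% and 2.35% of autosomal genes. The 4 changes differed among themselves by up to 1.55 (adjusted p = 0.00176), the sole gene of the 24 with such a difference, where 0.430% of autosomal genes had one. Libraries of clone G3 at day 6 and of clone H1 at day 6 marked the highest and lowest shares, 0.443 and 0.174.

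Peg3 and Copg2 changed the other way, toward Dom, as 2 of 24 genes where 5.71% of autosomal genes rose. The Dom share of Peg3 was 0.343 to 0.420 in the 9 untreated ES day 0 libraries (median 0.391) and 0.414 to 0.513 in the 8 of NPC day 6 (median 0.467), which overlapped slightly. The log2 ratio rose by 0.45 (SE 0.08, edgeR adjusted p = 5.01e-05), with 0.83 in PCGF35 (0.000253), and 0.43, 0.28 and 0.25 in PCGF35_SPOC, SPOC and DelPID_SPOC, where it missed the threshold (adjusted p = 0.325, 0.346 and 0.618). The difference among the 4 lines missed the threshold as well (edgeR adjusted p = 0.540). In PCGF35 the 10 fibroblast markers summed to 10.0 and 10.9 CPM at ES day 0 and 28.6 and 76.5 at NPC day 6. Of 9 tested there, 4 rose and 1, Thy1, fell. In SPOC they summed to 4.92 to 15.6 and then 3.02 and 7.54 CPM, with 0 rising and 1, Pdgfrb, falling. The part of these markers in the result was not tested. Copg2, a coatomer subunit gene next to Mest, went from 0.441 to 0.504 (median 0.476) to 0.484 to 0.563 (median 0.520), a log2 change of 0.25 (SE 0.06, adjusted p = 0.00121). By NPC day 6 the median share of Peg3 was thus nearer to 0.5 than at ES day 0, and that of Copg2 had passed from below to above it. Slc38a4 was further from it.

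Total RNA changed more often than the share. Between ES day 0 and NPC day 6, 16 of 32 imprinted genes changed, against 53.9% of autosomal genes: 11 rose where 27.4% of autosomal genes did and 5 fell where 26.4% did. The median log2 change was 0.25 over the 32 genes and 0.02 over autosomal genes.

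**Figure D4:**
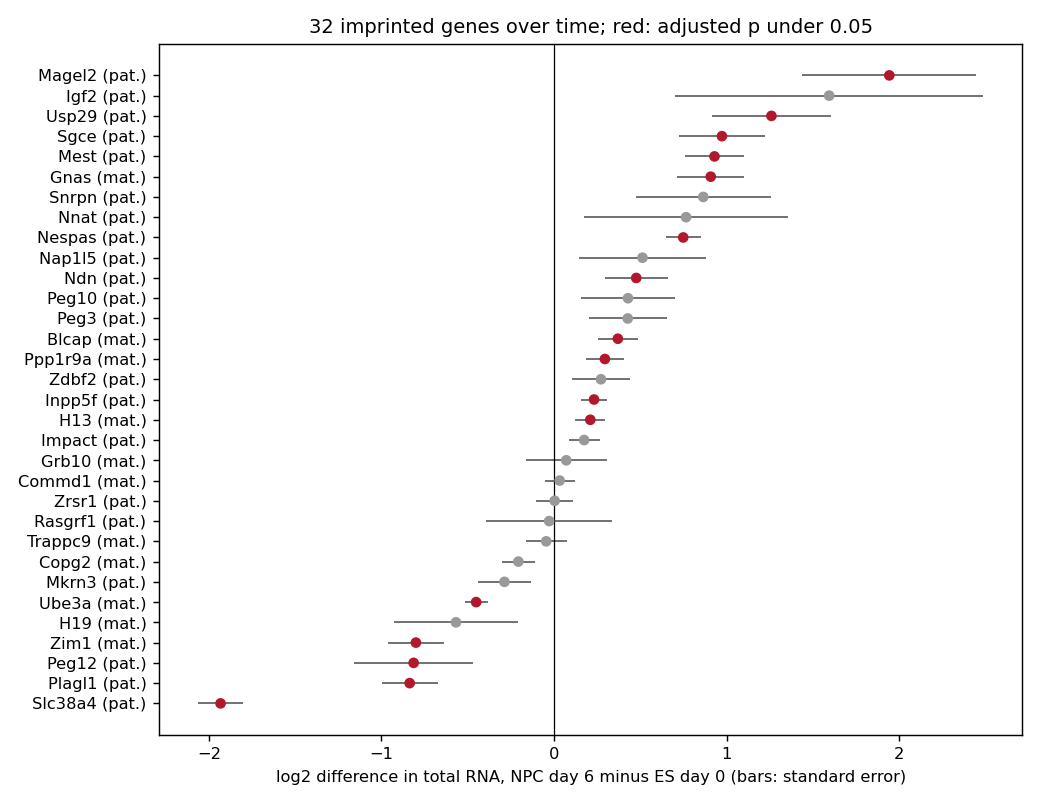
Log2 difference in total RNA between NPC day 6 and ES day 0 for the 32 imprinted genes tested, averaged over the 4 untreated lines with both stages, with bars of 1 SE and genes past an adjusted p of 0.05 in red. Magel2 at 1.94 and Slc38a4 at -1.93 stand at the ends.

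Among those that fell, Slc38a4 went from 238 to 367 CPM at ES day 0 (median 275, 9 libraries) to 46.0 to 156 at NPC day 6 (median 66.6, 8 libraries), with no overlap and a log2 change of -1.93 (SE 0.13, edgeR adjusted p = 1.75e-13). Plagl1 went from 27.7 to 103 CPM (median 36.1) to 16.7 to 49.1 (median 20.2), by -0.84 (SE 0.16, adjusted p = 5.82e-05), where the highest values at both stages were those of clone G3. Peg12 went from 1.08 to 2.11 CPM (median 1.79) to 0.233 to 2.77 (median 1.05), by -0.81 (SE 0.35, adjusted p = 0.0455), a call that ended when any of 11 libraries was left out, with no filter and with the compared groups alone (0.0579 and 0.0507). Zim1 fell by 0.80 on the log2 scale and Ube3a by 0.45.

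Among the 11 that rose, Magel2 went from 0.529 to 7.58 CPM (median 1.32) to 3.64 to 11.6 (median 4.81), by 1.94 (SE 0.50, edgeR adjusted p = 0.00156). Usp29, a ubiquitin peptidase gene, went from 2.87 to 11.9 CPM (median 4.70) to 6.21 to 41.8 (median 9.90), by 1.26 (SE 0.34, adjusted p = 0.00243). Sgce, the epsilon-sarcoglycan gene beside Peg10, went from 20.0 to 73.7 CPM (median 45.8) to 35.7 to 210 (median 72.0), by 0.97 (SE 0.25, adjusted p = 0.00132). For all 3 the stages overlapped. Mest rose by 0.93, Gnas, the stimulatory G protein alpha gene, by 0.91, Nespas, its antisense RNA, by 0.75, Ndn by 0.48, Blcap by 0.37, Ppp1r9a, which encodes neurabin, by 0.29, Inpp5f by 0.23 and H13 by 0.21. The calls of H13, Ndn and Ppp1r9a ended without any of 8, 5 and 5 single libraries, and that of Inpp5f without replicate 1 of DelPID_SPOC at NPC day 6. That of H13 also ended with DESeq2 and with RLE size factors (adjusted p = 0.0621 and 0.0656). With the replicate as a block those of Ndn and Ppp1r9a ended as well (adjusted p = 0.0534 and 0.104).

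Zrsr1 was the 1 gene of 32 whose total RNA changed differently among lines (range of log2 changes 1.63, edgeR adjusted p = 0.0159), where 2.83% of autosomal genes did. Its level in DelPID_SPOC went from 31.3 and 25.5 CPM (A8 and G3) to 50.8 and 60.5, a log2 change of 0.97 (adjusted p = 0.00265). In PCGF35 it went from 31.9 and 25.3 to 18.2 and 17.5 CPM, by -0.66 (0.0233). In SPOC it stood at 29.6, 22.3 and 24.4 CPM and then at 18.4 and 16.4, and in PCGF35_SPOC at 27.5 and 23.8 and then at 24.7 and 31.5. DelPID_SPOC was the 1 line whose rise passed the threshold.

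The SPOC mutation was examined by setting each mutant line beside the line without it in NPC. WT and SPOC, and DelPID and DelPID_SPOC, were differentiated side by side in repeat experiments, but the sources used here do not tie a parental replicate to a clone, so the libraries were not paired. In Dom share 1 of 24 genes passed, Slc38a4, against 2.95% of autosomal genes. Its mean share was 0.338 in mutants and 0.379 in parents over the untreated NPC groups, a log2 ratio change of -0.31 (SE 0.09, edgeR adjusted p = 0.0330). By pair the change was -0.53 for SPOC against WT (adjusted p = 0.0551), -0.31 for PCGF35_SPOC against PCGF35 (0.752) and -0.11 for DelPID_SPOC against DelPID (0.828), and no gene of the 24 differed among pairs, where 1.31% of autosomal genes did (2 at an unadjusted p under 0.05). This call ended when any of 12 of the 24 libraries was left out, with limma (adjusted p = 0.0600), and when the libraries outside the comparison were dropped (0.115).

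In total RNA the mutation was accompanied by a change in 4 of 32 genes, against 6.63% of autosomal genes. Of these 4, Grb10 and Zrsr1 lie on chromosome 11 and Impact on chromosome 18. Whether the shifts of those chromosomes entered into the changes was not tested. In the same comparison 4 of 7 ES markers, Klf2, Nanog, Prdm14 and Zfp42, were higher in the mutants and 0 lower. Of 6 tested neural markers 1, Pax6, was higher and 0 lower, and 0 of 9 fibroblast markers changed. From selected markers, the paper reports tentative signs that SPOC cells differentiate less well. The part of differentiation state in the changes was not tested. Grb10 had 18.8 and 8.19 CPM at NPC day 3 and 24.1 and 9.59 at day 6 in SPOC (D9, H1), while WT had 44.7 and 48.6, then 84.1 and 61.4. In PCGF35_SPOC (F10, F6) it had 92.8 and 46.1, then 81.2 and 30.7, beside 76.0 and 86.0, then 71.5 and 66.7 in PCGF35. In DelPID_SPOC (A8, G3) it had 65.8 and 36.2, then 87.6 and 27.6, beside 113 and 79.7, then 92.5 and 69.3 in DelPID. SPOC lay below WT at both days, DelPID_SPOC lay below DelPID at day 3 and overlapped with it at day 6, and PCGF35_SPOC overlapped with PCGF35 at both days. Over the 3 pairs Grb10 fell by 0.98 on the log2 scale (SE 0.20, edgeR adjusted p = 0.00153), and by pair the change was -1.89 (adjusted p = 0.00350), -0.30 (0.880) and -0.74 (0.226), in comparisons that called 1.28%, 0.0897% and 2.10% of autosomal genes. SPOC was already low at ES day 0, with 21.6, 17.1 and 18.4 CPM, where no WT library exists.

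The other 3 rose. Plagl1 was 19.4 and 18.4, then 20.4 and 20.6 CPM in SPOC beside 15.8 and 12.4, then 19.6 and 14.6 in WT, with 21.6 and 37.4, then 20.1 and 49.1 in DelPID_SPOC beside 10.9 to 18.2 in the 4 DelPID libraries, and 18.8 and 19.5, then 27.5 and 16.7 in PCGF35_SPOC beside 11.4 and 12.0, then 17.6 and 18.8 in PCGF35, a mean rise of 0.61 (SE 0.14, edgeR adjusted p = 0.00457). Impact was 385 and 379, then 383 and 281 CPM in DelPID_SPOC beside 188 and 227, then 163 and 206 in DelPID, and 282 and 254, then 240 and 260 in SPOC beside 228 and 185, then 208 and 187 in WT, a mean rise of 0.48 (SE 0.07, 6.61e-05). In these 2 pairs each mutant library of a day stood above each parental one for Impact. In PCGF35_SPOC Impact was 223 and 197, then 181 and 217 CPM beside 182 and 180, then 165 and 178 in PCGF35, again higher at each day, by a smaller margin. Zrsr1 rose by 0.44 (SE 0.09, 0.00197), with its largest pair difference of 0.68 in DelPID_SPOC (0.0144). No gene of the 32 differed among the 3 pairs, where 0.0513% of autosomal genes did (edgeR, 5 at an unadjusted p under 0.05).

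Over the 6 lines in untreated NPC, 14 of 32 genes differed in total RNA, against 37.1% of autosomal genes. The widest were Igf2 (range of log2 levels 2.85, edgeR adjusted p = 0.0340), Grb10 (2.56, 6.45e-05) and Peg12 (2.32, 0.0103), of which Igf2 and Peg12 rest on few fragments. The count was 9 without replicate 2 of DelPID_SPOC at NPC day 6. The call of H19 ended when any of 14 single libraries was left out, that of Zim1 with any of 8, of Igf2 with any of 7, of Sgce with any of 5, of Nap1l5 with any of 4 and of Nespas with 1, and those of Sgce and Zim1 with the compared groups alone (adjusted p = 0.0504 and 0.0961). Zrsr1 (1.50), Impact (1.04), Plagl1 (1.14) and Commd1 (0.62), named above for their shares, were among the 14. Total RNA differed between lines in 61.8% of genes tested on chromosome 11, where Grb10, Zrsr1 and Commd1 lie. On chromosome 18, where Impact lies, it was 62.8%, and on the other autosomes 34.1%.

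Removal of PCGF3 and PCGF5 by dTAG-13 left no detectable allelic change in these genes. The Dom share of 0 of 24 genes passed in PCGF35, where 0.0430% of autosomal genes did, and of 0 of 24 in PCGF35_SPOC, where 0% did (edgeR's quasi-likelihood test, 1 and 1 genes at an unadjusted p under 0.05, and 0 and 0 with limma). For Slc38a4 at NPC day 6 the shares were 0.362 and 0.359 with dTAG-13 and 0.411 and 0.328 without it in PCGF35, and 0.393 and 0.277 beside 0.345 and 0.277 in PCGF35_SPOC. Treated and untreated libraries overlapped. For Snrpn they were 0.960 and 0.920 with and 0.961 and 0.909 without dTAG-13 in PCGF35.

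In total RNA dTAG-13 changed 0 of 32 genes in PCGF35 and 0 of 32 in PCGF35_SPOC, where 0% and 0% of autosomal genes passed (edgeR, 1 and 0 genes at an unadjusted p under 0.05, and 0 and 0 by DESeq2). Treated and untreated PCGF35 cells were grown in parallel, and with the replicate as a block 5 of the 32 genes passed there, against 6.08% of autosomal genes. Usp29 was 16.9 and 11.6 CPM at NPC day 3 and 41.8 and 16.3 at day 6 without dTAG-13, and 9.49 and 6.34, then 13.5 and 8.04 with it, while in ES cells all 8 libraries lay between 4.40 and 6.85. Gnas was 55.1 and 48.8, then 85.5 and 76.1 CPM without and 39.4 and 32.6, then 54.3 and 54.0 with dTAG-13. In NPC the treated library thus lay below the untreated library of the same number each time for both genes, and the blocked log2 changes over all 4 times were -0.53 for Usp29 (SE 0.09, edgeR adjusted p = 0.00798) and -0.32 for Gnas (SE 0.05, 0.00623). Plagl1 (-0.27, SE 0.06, 0.0321), Ppp1r9a (0.26, SE 0.07, 0.0393) and Trappc9 (0.20, SE 0.05, 0.0392) made up the rest. In NPC the fibroblast markers summed to 21.9 and 23.3 CPM at day 3 and 28.6 and 76.5 at day 6 without dTAG-13, and to 12.5 and 19.9, then 14.9 and 27.7 with it. The ES markers summed to 508 and 561, then 322 and 356 CPM without and to 667 and 784, then 427 and 578 with dTAG-13. Without the block 0 of 9 fibroblast and 0 of 7 ES markers passed, and their part in the result was not tested. With the block, PCGF35_SPOC still gave 0.

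After 1 day of doxycycline in ES cells no call was made either. In Dom share 0 of 24 genes passed where 0.0172% of autosomal genes did (edgeR, 2 genes at an unadjusted p under 0.05, 0 with limma), and in total RNA 0 of 32 where 0.0256% did (2 at an unadjusted p under 0.05, 0 by DESeq2). With the replicate or clone as a block 3 of 32 passed in total RNA, against 7.25% of autosomal genes. These were Peg10, a retrotransposon-derived placental gene (-0.27, SE 0.04, edgeR adjusted p = 0.000146), Impact (-0.18, SE 0.03, 0.000611) and Copg2 (0.11, SE 0.03, 0.0196).

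Clones of the same line differed in several of these genes. Between F10 and F6 of PCGF35_SPOC, 8 libraries each, total RNA of 12 of 32 genes differed, against 33.3% of autosomal genes, and 10 of them were higher in F10. Nnat, the neuronatin gene, was 2.01 to 4.67 CPM in F10 (median 2.82) and 0.172 to 0.677 in F6 (median 0.343), with no overlap and a log2 difference of 3.00 (SE 0.19, edgeR adjusted p = 5.28e-06), from 35 to 69 fragments and from 2 to 9 fragments per library. Magel2 was 2.43 to 10.8 CPM beside 0.357 to 4.62, by 2.14 (SE 0.48, 0.00702). Usp29 was 8.24 to 54.8 CPM beside 3.73 to 7.05, also without overlap, by 1.60 (SE 0.27, 0.00168). Gnas, H19, Sgce, Peg12, Grb10, H13 and Ube3a were higher in F10 by 1.02, 1.14, 0.82, 0.99, 0.47, 0.29 and 0.17 on the log2 scale. Slc38a4 was lower, 50.6 to 240 CPM in F10 and 89.1 to 269 in F6, by -0.36 (SE 0.11, 0.0278), and Trappc9, a vesicle trafficking subunit gene, 206 to 282 and 237 to 343, by -0.35 (SE 0.07, 0.00480). Leaving out single libraries ended the call of Grb10 in 14 fits, of Peg12 in 10, of Ube3a in 6 and of Slc38a4 in 5, and that of Grb10 also ended with RLE size factors and with no filter (adjusted p = 0.0515 and 0.0526).

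**Figure D5:**
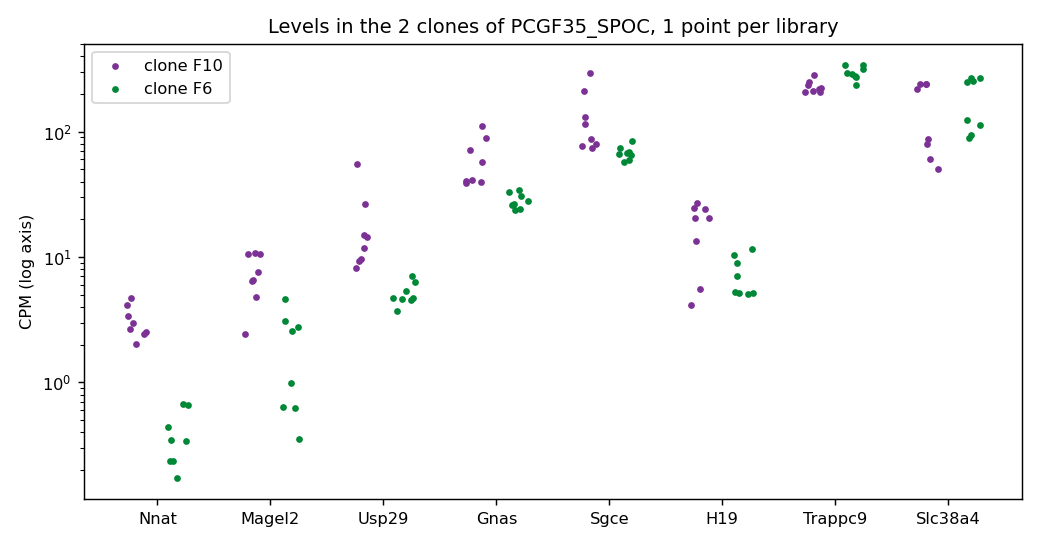
Total level in CPM (log axis) of 8 imprinted genes in the clones F10 and F6 of PCGF35_SPOC, 1 point per library. For Nnat and Usp29 the points of F10, at 2.01 to 4.67 and 8.24 to 54.8 CPM, lie above all points of F6.

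Markers of all 3 cell type lists differed between these clones. The fibroblast markers summed to 16.8 to 248 CPM in F10 and 6.97 to 16.9 CPM in F6, with none of the 10 genes at 0 in all libraries. In F10, 6 of 9 tested fibroblast and 5 of 6 tested neural markers were higher and 0 lower. Of 7 ES markers 2, Esrrb and Nanog, were lower and 0 higher. That comparison called 33.3% of autosomal genes, and the part of these markers in the result was not tested. In Dom share 2 of 24 genes differed between the same clones, against 5.00% of autosomal genes: Plagl1, 0.506 to 0.690 in F10 and 0.662 to 0.759 in F6 (log2 ratio difference -0.62, SE 0.14, edgeR adjusted p = 0.0107), and Peg3, 0.419 to 0.509 and 0.391 to 0.448 (0.20, SE 0.05, 0.0140).

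Between A8 and G3 of DelPID_SPOC, 4 libraries each, total RNA of 5 of 30 genes differed, against 15.3% of autosomal genes. G3 matches by letter the clone G that the paper calls tetraploid, and the part of ploidy in these differences was not tested. Plagl1 was 46.6, 44.3, 21.6 and 20.1 CPM in A8 at ES days 0 and 1 and NPC days 3 and 6, and 103, 105, 37.4 and 49.1 in G3. G3 was thus higher at each time, by 1.11 on the log2 scale (A8 minus G3 -1.11, SE 0.11, edgeR adjusted p = 0.00152). Slc38a4 was lower in A8 as well (-0.49, SE 0.13, 0.0498), while H19 (1.11, SE 0.24, 0.0227), Mest (0.62, SE 0.09, 0.00567) and Impact (0.38, SE 0.10, 0.0456) were higher. The count was 2 without any single library of ES day 0, ES day 1 or NPC day 6. Plagl1 and Peg3 were also the 2 of 24 genes whose Dom share differed here, against 12.5% of autosomal genes. Plagl1 was 0.720 to 0.795 in A8 and 0.641 to 0.771 in G3 (0.59, SE 0.12, 0.000323), and Peg3 0.378 to 0.414 and 0.416 to 0.469 (-0.32, SE 0.07, 0.00154), a call that ended without either library of NPC day 3. The neural markers summed to 630 to 764 CPM in A8 and 1099 to 1313 in G3, with Sox1 at 0. In total RNA 3 of 5 tested neural markers were lower in A8 and 1 higher. Of 7 tested fibroblast markers 5 were lower in A8 and 0 higher, and of 7 ES markers 4 were lower and 1 higher. The part of these markers in the result was not tested.

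The clones D9 and H1 of SPOC did not differ in these genes past the threshold. In Dom share 0 of 24 passed where 0.0172% of autosomal genes did (edgeR, 0 at an unadjusted p under 0.05, 0 with limma), and in total RNA 0 of 31 where 0% did (4 at an unadjusted p under 0.05, 0 by DESeq2). All 4 clone calls in Dom share, 2 in each of the other lines, missed the threshold with limma (adjusted p from 0.0870 to 0.178).

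The genes that keep imprints were measured as well. All 9 of them changed in total RNA between ES day 0 and NPC day 6, in a comparison that called 53.9% of autosomal genes. Zfp57 fell by 0.54 on the log2 scale (SE 0.17, edgeR adjusted p = 0.00677) and Dppa3, a protector of methylation in the early embryo, by 0.88 (SE 0.17, 6.90e-05). The other 7, Uhrf1, Trim28, Ctcf, Setdb1, Smchd1, Dnmt1 and Zfp445, rose by 0.28 to 0.55. With the SPOC mutation 1 of 9 changed, Zfp57, by 0.75 (SE 0.14, 0.000634), against 6.63% of autosomal genes. As given above, 4 of 7 ES markers were higher in the mutants too, and their part in the Zfp57 change was not tested. With dTAG-13 or doxycycline 0 of 9 changed in the unblocked fits, which called 0% and 0.0256% of autosomal genes. The blocked fits called 6.08% for dTAG-13 in PCGF35 and 7.25% for doxycycline, and were not read for these 9 genes. The 0 of 9 therefore does not show that they stayed unchanged. Of 23 further imprinted genes listed for comparison, 18 were tested in total RNA and 10 changed with differentiation, 5 in each direction, and 16 were tested in Dom share and 5 changed, in a comparison that called 10.8% of autosomal genes. Ddc (0.40) and Atp10a (0.25) moved toward Dom, and Adam23 (-0.37), Sfmbt2 (-0.36) and Calcr (-1.05) toward Cast in log2 ratio.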

How the data were processed

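Chromatin-associated RNA was sequenced from 58 libraries in 28 groups taken from the labels. The deposited tables hold counts of read pairs per gene, in total and by allele, which the authors made, by the labels and the paper's methods, with Bowtie2 2.3.2 (removal of ribosomal RNA), STAR 2.4.2a on an N-masked mm10 genome, SNPsplit and strand-aware featureCounts 1.5.2 over whole transcripts. No column of per-sample values was left unused, and a separate table of X-linked allelic ratios was not used.

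CPM was computed by scaling a gene's count to the library's total count in genes, without further scaling. Total counts were tested with edgeR 4.0.16 (R 4.3.3) by quasi-likelihood fits with TMM factors, and Cast and Dom counts by the same test with a term per library, over genes with at least 10 allelic fragments in over 80% of libraries. Benjamini-Hochberg adjustment ran over all genes tested, with a threshold of 0.05. Both fits were tested on simulated data for the differentiation comparison (15692 and 3000 genes). With a log2 change of 1, 93.3% of 193 genes in total RNA and 91.5% of 200 in Dom share were recovered. Of the calls made, 5.76% and 4.69% were false. The simulated libraries had a fixed spread and no clone or replicate effect, unlike the real ones. These shares therefore do not give the recovery in the real data. At most 3 called genes per direction, largest log2 change first, have full statistics in each comparison, and each library's context is the median of its chromosome or of the 10 nearest tested genes. Calls are given beside the share of autosomal genes called. Alternatives were DESeq2 1.42.0, limma 3.58.1 on log2 allele ratios (pseudocount 0.5), size factors by RLE, no filter, 20 allelic fragments, a chromosome offset, the compared groups alone, a replicate block, and each library left out. Figures and summaries used Python 3.11.15, pandas 2.3.3, numpy 2.4.6, scipy 1.17.1 and matplotlib 3.10.9.

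Replicate numbers mark clones in PCGF35_SPOC, DelPID_SPOC and SPOC, and deviations of the same clone correlated at 0.223 to 0.884, 0.307 to 0.845 and -0.0709 to 0.648. In PCGF35, per the study's methods, treated and untreated cells were cultured in parallel, and the 8 pairs correlated at 0.261 to 0.734. The replicates of WT, DelPID and PCGF35 are repeat experiments on 1 line, by the paper's legends, so p-values do not cover the spread between clones there. The members and comparison lists were chosen with earlier results of these data known.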

Additional observations from a re-analysis of the deposited data

Results flagged for a closer look

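Slc38a4 changed in Dom share to different degrees in the 4 untreated lines with both stages, by a test of the difference itself (edgeR's quasi-likelihood test over lines, adjusted p = 0.00176). The log2 ratio change was -2.35 in SPOC, -1.31 in PCGF35_SPOC, -0.93 in DelPID_SPOC and -0.80 in PCGF35, with every NPC day 6 library below every ES day 0 library.

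Zrsr1 changed in total RNA in different directions by line, again by a test of the difference (adjusted p = 0.0159). Its log2 change was 0.97 in DelPID_SPOC and -0.66 in PCGF35, and 0.17 and -0.46 in PCGF35_SPOC and SPOC, where it missed the threshold.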

How the results depend on the processing

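No direction reversed in 1544 refits of the 68 called values of single genes, and 208 refits missed the threshold, 180 of them with a library left out. In Dom share the SPOC mutation called 1 gene, and 2 with 20 allelic fragments, 0 with limma and 0 with the compared groups alone. The line comparison called 9 genes and 3 with the chromosome offset. Clones F10 and F6 gave 2 and 0 with limma, and A8 and G3 gave 2, 6 with the chromosome offset and 0 with limma. Members one-sided in every library numbered 0, and 1 with limits of 0.2 and 0.8 or where 80% of libraries sufficed. The causes were not tested.

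Paired fits with a replicate block gave 5 members for dTAG-13 in PCGF35 and 3 for doxycycline in total RNA, where the unblocked fits gave 0, and 15 rather than 16 with differentiation. The block moved no other count, with 3 in Dom share with differentiation and 0 for dTAG-13 and doxycycline.

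With single libraries left out, counts in Dom share were 3 to 4 for differentiation, 0 to 2 for the SPOC mutation, 6 to 9 for lines, 2 to 2 for F10 and F6 and 1 to 3 for A8 and G3, and in total RNA 13 to 17, 4 to 6, 9 to 16, 9 to 15 and 2 to 4. They stayed at 0 for dTAG-13, doxycycline and clones D9 and H1. Where an arm kept 1 library, it was assumed to vary like the other groups.

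Depth limits the sparse genes, above all Igf2, Nnat, Nap1l5 and Klf14, whose shares rest on 14 to 62 fragments in all.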
